A study of Saccharomyces cerevisiae with 21 samples.

Results

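The genes described here are the 9 cyclin genes of the budding yeast cell cycle and SIC1, taken by their open reading frame identifiers. They are 10 of the 7126 features in the deposited table, and 10 of the 6007 features that matched a protein-coding gene of the RefSeq annotation of assembly R64. The G1 cyclins are CLN1 (YMR199W), CLN2 (YPL256C) and CLN3 (YAL040C). The B-type cyclins are CLB1 (YGR108W), CLB2 (YPR119W), CLB3 (YDL155W), CLB4 (YLR210W), CLB5 (YPR120C) and CLB6 (YGR109C). SIC1 (YLR079W) encodes an inhibitor of the B-type cyclin kinases. Each of the 10 genes passed the filter on low counts.

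Cyclins bind and activate the cyclin-dependent kinase Cdc28, and the successive appearance of different cyclins drives the cell through division. Cln3 acts early in G1 and leads to activation of the transcription factors SBF and MBF, which in turn drive CLN1 and CLN2 together with the S phase cyclin genes CLB5 and CLB6. Clb3 and Clb4 act early in mitosis, Clb1 and Clb2 are the main mitotic cyclins, and their genes are driven by Mcm1 with the forkhead factor Fkh2. Sic1 holds the B-type cyclin kinases inactive in G1, is destroyed after phosphorylation by Cln kinases, and is made again at the end of mitosis under the factor Swi5.

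Nascent RNA, the RNA bound to RNA polymerase II, was sequenced from 21 libraries, 3 for each of 7 conditions. All strains were MATa derivatives of BY4741, labelled his3D1, leu2D0, met15D0 and ura3D0, in which the polymerase subunit Rpb3 carried a 3xFLAG tag used for the purification, grown in YPD at 30 °C. WT cells (labelled FVW7228, and FW7228 in the study's strain list) had no degron and no treatment, neither IAA nor DMSO. The STH1-AID (FW7220), RAP1-AID (FW7238) and RAP1-AID/STH1-AID (FW7232) strains expressed the plant F-box protein osTIR from the GPD1 promoter and carried STH1, RAP1 or both fused to 3V5-IAA7, a degron. Each degron strain received DMSO (control) or 3-indole-acetic acid (IAA) at 500 µM for 2 h, which depletes Sth1, the ATPase of the RSC chromatin remodeller, Rap1, a general regulatory factor, or both proteins. The comparisons ask how nascent transcription changed on Sth1 depletion, Rap1 depletion and co-depletion, how each control differed from WT, and whether the effects differed between strains. Each genotype was represented by 1 strain.

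The total expected count of a library lay between 18289832 and 23182315. The degron removes protein, so the RNA of STH1 and RAP1 is no check of the depletion. STH1 RNA lay at 419 to 512 TPM (transcript abundance scaled to gene length) in Sth1-depleted cells and at 240.5 to 302 TPM in their control. STE2, the receptor gene of MATa cells, lay at 131 to 545 TPM in all libraries, and STE3, that of MATα cells, was at most 9.74 TPM. LEU2 had 0 counts in every library, the degron strains included, whose osTIR construct is labelled with a LEU marker, and URA3 had at most 2. HIS3, labelled his3D1, had 777 to 1675 counts in all libraries, and which part of the gene was read was not examined. MET17, the gene deleted in met15D0, had 593 to 1228 counts in each WT, RAP1-AID and RAP1-AID/STH1-AID library and at most 2 counts in each STH1-AID library, so 15 of 21 libraries went against that label. The STH1-AID strain therefore also differed from the other strains at this locus, and comparisons across strains cannot tell this apart from the degron.

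Sequence upstream of the genes was read from assembly R64, and is shown for the genes whose upstream region held a short motif linked to their known regulators. The motifs were the MBF core ACGCGT, the SBF core CGCGAAA, the forkhead core GTAAACA and the Swi5 core CCAGC, each searched on both strands, with the RSC motif core CGCG contained in the MBF and SBF cores. Capitals mark the matches, and a match is only a run of letters. The stretches lie at chrXIII:662021-662060 (plus strand, CLN1), chrXVI:67197-67236 (minus strand, CLN2), chrVII:706865-706904 (minus strand, CLB6), chrVII:702992-703031 (plus strand, CLB1) and chrXVI:770873-770912 (plus strand, CLB2), in 5′ to 3′ direction towards the gene.
CLN1: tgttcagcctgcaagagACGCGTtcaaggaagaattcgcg
CLN2: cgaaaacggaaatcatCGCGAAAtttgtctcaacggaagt
CLB6: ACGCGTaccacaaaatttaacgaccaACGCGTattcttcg
CLB1: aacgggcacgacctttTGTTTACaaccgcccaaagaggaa
CLB2: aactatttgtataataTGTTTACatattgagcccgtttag
CLB6 held 2 MBF cores, 403 and 377 bases before its start codon. The match of CLN1 lay 606 bases before the start codon and that of CLN2 also 606 bases before it. The forkhead core, searched after the data were seen, began 628 bases before CLB1 and 764 bases before CLB2.

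In windows of 1000 bases before the start codon, the SBF core was found for 2 of the 10 genes (CLN2 and CLB4) and for 7.92% of all protein-coding genes. The MBF core was found for 3 (CLN1, CLB2 and CLB6), against 8.51% of all genes, and the forkhead core for 5 against 17.8%. The Swi5 core was found for 7 against 64.4%, the RSC motif core for 10 against 60.1%, and a run of 7 A for 9 against 77.2%. In windows of 250 bases, none of the 10 genes held the SBF core or the MBF core, which 3.36% and 2.91% of all genes held.

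CLB4 and SIC1 each share their upstream region with a neighbour read in the other direction, and the changes of these pairs are given further on. CLB4 lies 275 bases from PNP1, a purine nucleoside phosphorylase gene, and SIC1 lies 260 bases from BOS1, a membrane trafficking gene. The printed stretches leave out the 60 bases beside each start codon and run from the neighbour to the member at chrXII:561793-561947 (CLB4) and chrXII:286620-286759 (SIC1), plus strand. Capitals mark the forkhead core for CLB4 and the Swi5 core, on either strand, for SIC1.
CLB4: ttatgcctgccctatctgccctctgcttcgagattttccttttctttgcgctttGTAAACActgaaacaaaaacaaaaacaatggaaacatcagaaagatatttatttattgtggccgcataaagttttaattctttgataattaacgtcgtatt
SIC1: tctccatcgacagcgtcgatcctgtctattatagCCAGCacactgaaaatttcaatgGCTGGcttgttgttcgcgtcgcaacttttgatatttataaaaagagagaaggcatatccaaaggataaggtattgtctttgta
The 2 Swi5 cores of SIC1 began 166 and 143 bases before its start codon.

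In WT cells the level per length ranged 17.1-fold from SIC1 to CLB6. SIC1 was highest at 362 ± 22.8 TPM (SD, n = 3). CLB2 at 157 ± 12.4 TPM and CLN2 at 146 ± 14.8 TPM followed, and their libraries overlapped. CLN1 (93.4 ± 14.4 TPM), CLN3 (86.8 ± 7.67 TPM) and CLB1 (75.8 ± 7.23 TPM) formed the next neighbours, each overlapping the next in level. CLB3 (49.7 ± 4.35 TPM) and CLB4 (45.7 ± 3.30 TPM) overlapped as well. CLB5 at 32.5 ± 3.82 TPM and CLB6 at 21.1 ± 1.73 TPM were lowest, and their libraries did not overlap. SIC1 was also the highest of the 10 in 6 of the 7 conditions. In Sth1-depleted cells it was the third, at 176 ± 7.68 TPM, behind CLB1 at 215 ± 13.7 TPM and CLB2 at 193 ± 12.3 TPM, and the libraries of these neighbours overlapped. By CPM per kb SIC1 (175) was the fourth in these cells, behind CLN2 (194), and in the other conditions both measures gave each gene the same rank.

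**Figure D1:**
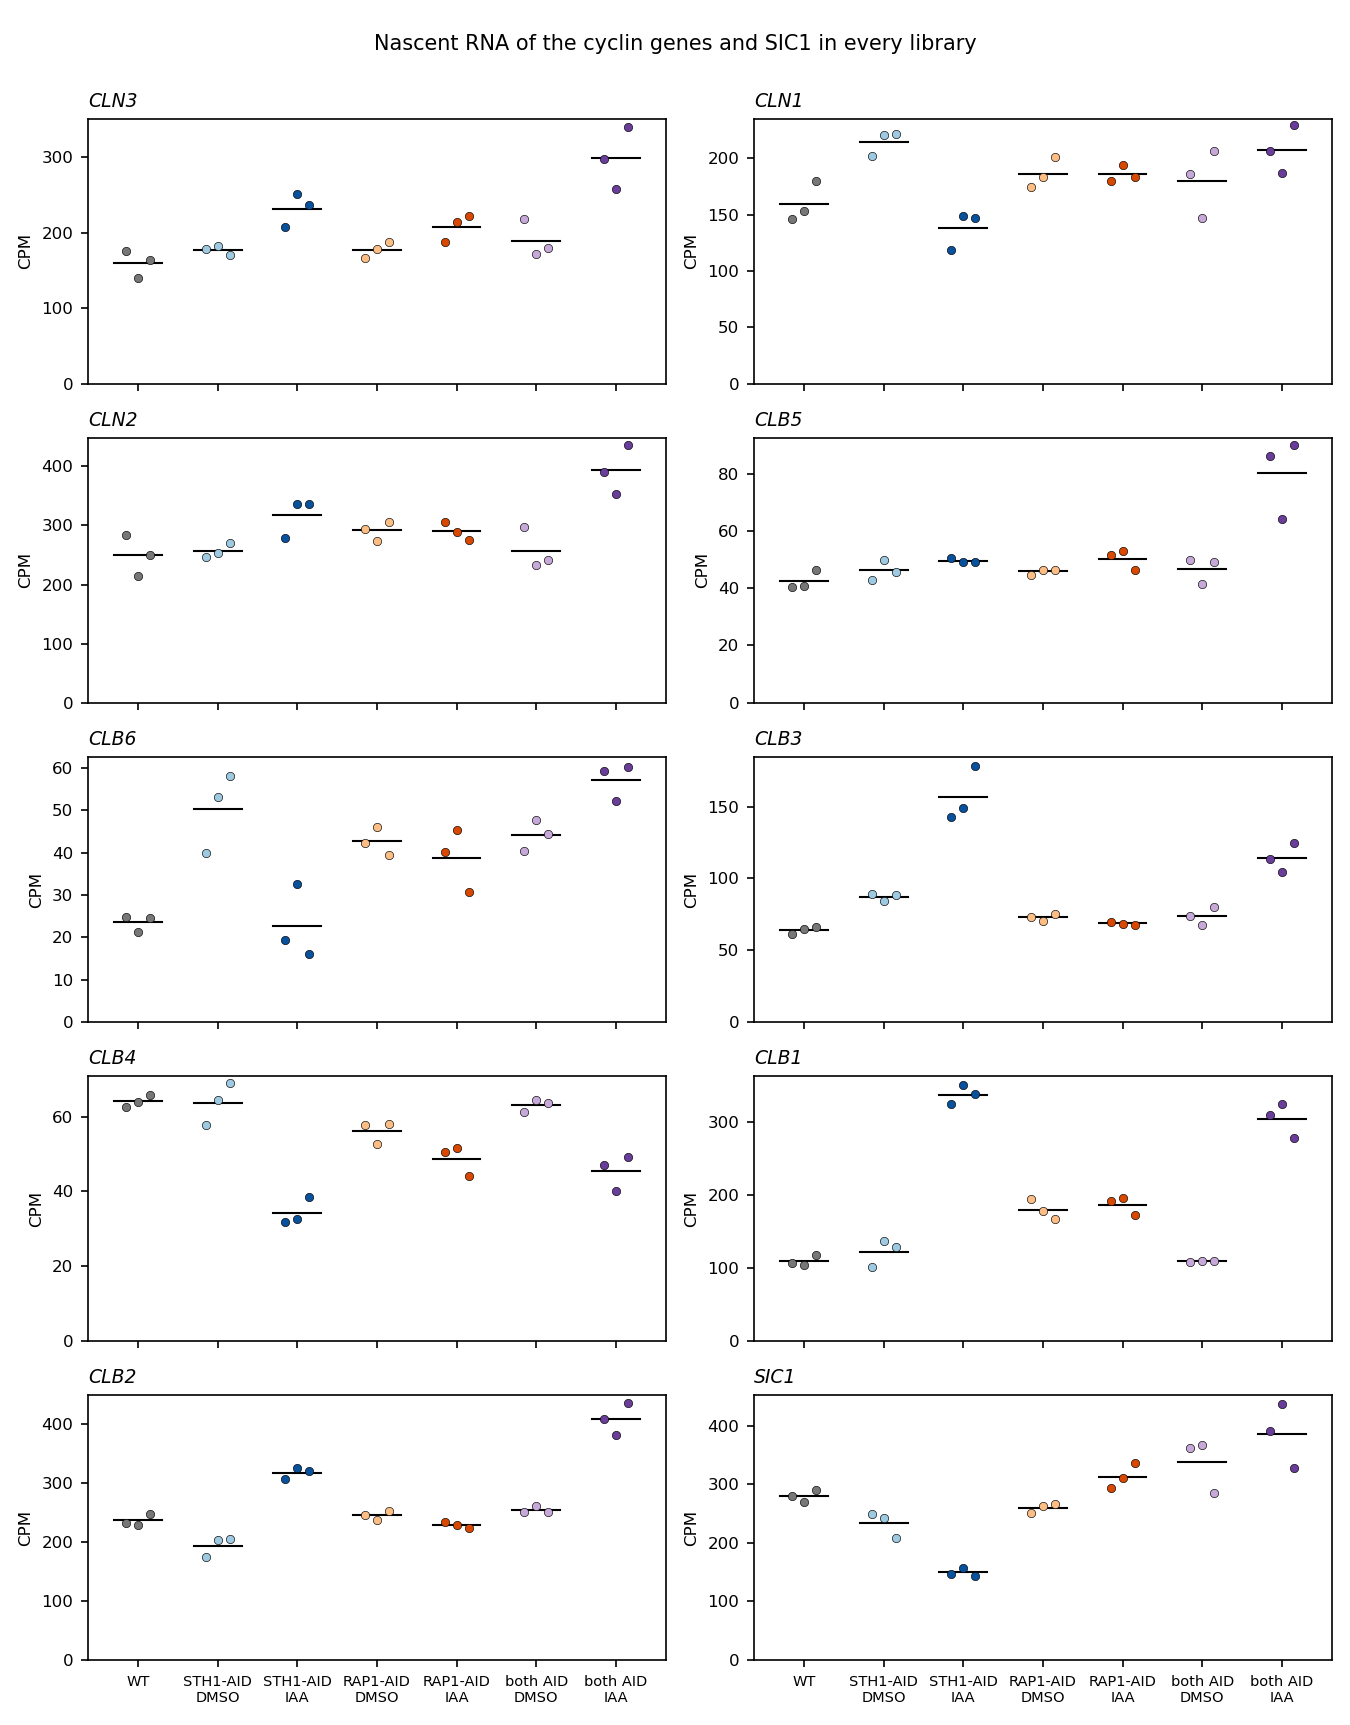
CPM, counts put on a common library scale with TMM factors, of each gene in the 21 libraries by condition, with a line at the mean of 3 libraries; "both AID" is the RAP1-AID/STH1-AID strain. CLB1 lies at 324 to 349 CPM in Sth1-depleted cells and at 101 to 137 CPM in their control, while CLB4, CLB6 and SIC1 are lower in Sth1-depleted cells than in their control.

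On Sth1 depletion, 9 of the 10 genes changed. The mitotic cyclin genes CLB1 and CLB2, the early mitotic CLB3 and the G1 cyclin genes CLN2 and CLN3 rose, while CLN1, CLB4, CLB6 and SIC1 fell, and CLB5 did not pass the test. A gene rose or fell where the adjusted p-value of edgeR's quasi-likelihood test over 5742 protein-coding genes was below 0.05. The 5 genes that rose stand beside 35.9% of all genes tested that rose, and the 4 that fell beside 40.9% of all genes, so the shares of the members do not set them apart. 2 genes, CLB1 and CLB6, changed over 2-fold, against 26.4% of all genes. The median log2 fold change was 0.20 over the 10 genes and -0.06 over all genes tested. The treated and control libraries were without overlap for 9 of the 10 genes, as for 77.8% of all genes. All values are relative to the other RNA of the library. In a bulk culture, more transcription of a gene per cell and more cells at the stage that transcribes it cannot be told apart.

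CLB1 (chrVII:703636-705051, plus strand) had the largest rise of the 10. Its CPM was 101, 137 and 129 in the STH1-AID control libraries and 324, 349 and 337 in the Sth1-depleted libraries. The groups were far apart, and the control lay close to the 104 to 117 CPM of WT. The log2 fold change was 1.46 ± 0.10 (SE, adjusted p = 8.57e-11), a 2.76-fold rise. CLB2 (chrXVI:771653-773128, plus strand) had 174, 203 and 205 CPM in the control and 307, 325 and 320 CPM after depletion. Every depleted library exceeded every control and WT library, and the log2 fold change was 0.71 ± 0.07 (adjusted p = 2.86e-08). The ratio of CLB1 to CLB2 counts, which no scaling between libraries changes, was chosen after the data were seen. It was 0.577 to 0.672 in the control and 1.05 to 1.07 after depletion. CLB1, the lower of the pair in all other conditions, was thus at or above CLB2 in read counts in Sth1-depleted cells.

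CLB3 and CLB4, the paralogous cyclin genes of early mitosis, moved in opposite directions. CLB3 (chrIV:176773-178056, plus strand) had 89.1, 84.4 and 88.1 CPM in the control and 143, 149 and 179 CPM in Sth1-depleted cells, a log2 fold change of 0.85 ± 0.09 (adjusted p = 3.23e-08). CLB4 (chrXII:562008-563390, plus strand) had 57.8, 64.4 and 68.9 CPM in the control and 31.7, 32.6 and 38.5 CPM after depletion. It was lower in every depleted library, with a log2 fold change of -0.89 ± 0.09 (adjusted p = 5.87e-08). Within a library, CLB3 and CLB4 had nearly the same number of counts in WT cells, at a ratio of 0.975 to 1.01. The ratio was 1.28 to 1.54 in the STH1-AID control and 4.50 to 4.64 in Sth1-depleted cells, where the 3 libraries were close to each other and apart from all others.

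The S phase cyclin genes also parted. CLB6 (chrVII:705359-706501, minus strand) had 39.9, 53.2 and 58.1 CPM in the control and 19.3, 32.6 and 15.99 CPM in Sth1-depleted cells. The groups did not overlap, but the depleted libraries scattered around the 21.2 to 24.9 CPM of WT. The log2 fold change was -1.16 ± 0.20 (adjusted p = 2.66e-05), with the widest error of the 10 genes. CLB5 (chrXVI:773875-775182, minus strand) had 43.0, 50.0 and 45.7 CPM in the control and 50.6, 49.1 and 49.0 CPM after depletion. These groups overlapped, and the log2 fold change of 0.10 ± 0.11 did not pass (adjusted p = 0.397).

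The G1 cyclin genes showed a split of the same kind. CLN1 (chrXIII:662644-664284, plus strand) had 202, 220.3 and 222 CPM in the control and 119, 149 and 147 CPM in Sth1-depleted cells. All depleted libraries were lower, at a log2 fold change of -0.63 ± 0.12 (adjusted p = 6.52e-05). Its paralog CLN2 (chrXVI:64977-66614, minus strand) had 246, 253 and 271 CPM in the control and 279, 336 and 337 CPM after depletion. The depleted libraries were higher by a small margin, at a log2 fold change of 0.31 ± 0.11 (adjusted p = 0.0179). This call was lost when any of 4 libraries was left out: DMSO replicate 1 (adjusted p = 0.0572), DMSO replicate 2 (0.0523), IAA replicate 2 (0.0708) or IAA replicate 3 (0.0759). CLN3 (chrI:65778-67520, minus strand) had 178, 182 and 169.8 CPM in the control and 207, 251 and 237 CPM after depletion, a log2 fold change of 0.39 ± 0.11 (adjusted p = 0.00387). The calls of CLN2 and CLN3 were also lost with total library size in place of TMM, which moved the median of all genes from -0.06 to -0.31: CLN2 then had a log2 fold change of 0.05 (adjusted p = 0.671) and CLN3 of 0.14 (adjusted p = 0.257). Over all alternatives the adjusted p ranged from 0.0039 to 0.671 for CLN2 and from 0.000513 to 0.257 for CLN3. Under that scaling 1399 genes rose and 2872 fell, against 2062 and 2346 with TMM.

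SIC1 (chrXII:286820-287674, plus strand) had 248.5, 242 and 209 CPM in the control and 147, 157 and 143 CPM in Sth1-depleted cells. All depleted libraries were lower than every other library of the study for this gene. The log2 fold change was -0.64 ± 0.11 (adjusted p = 1.81e-05). The inhibitor gene and the mitotic cyclin genes therefore moved apart within the same libraries: the ratio of SIC1 to CLB2 counts was 1.02 to 1.43 in the control and 0.447 to 0.484 after depletion. The ratio of CLB1 and CLB2 together to CLN1 and CLN2 together was 0.613 to 0.718 in the control and 1.36 to 1.59 after depletion. WT, at 0.789 to 0.908, lay between them. That of CLB5 and CLB6 to CLN1 and CLN2 was 0.185 to 0.218 and 0.134 to 0.176, also without overlap. Here WT lay at 0.152 to 0.169, inside the range of the depleted cells and below the control.

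**Figure D2:**
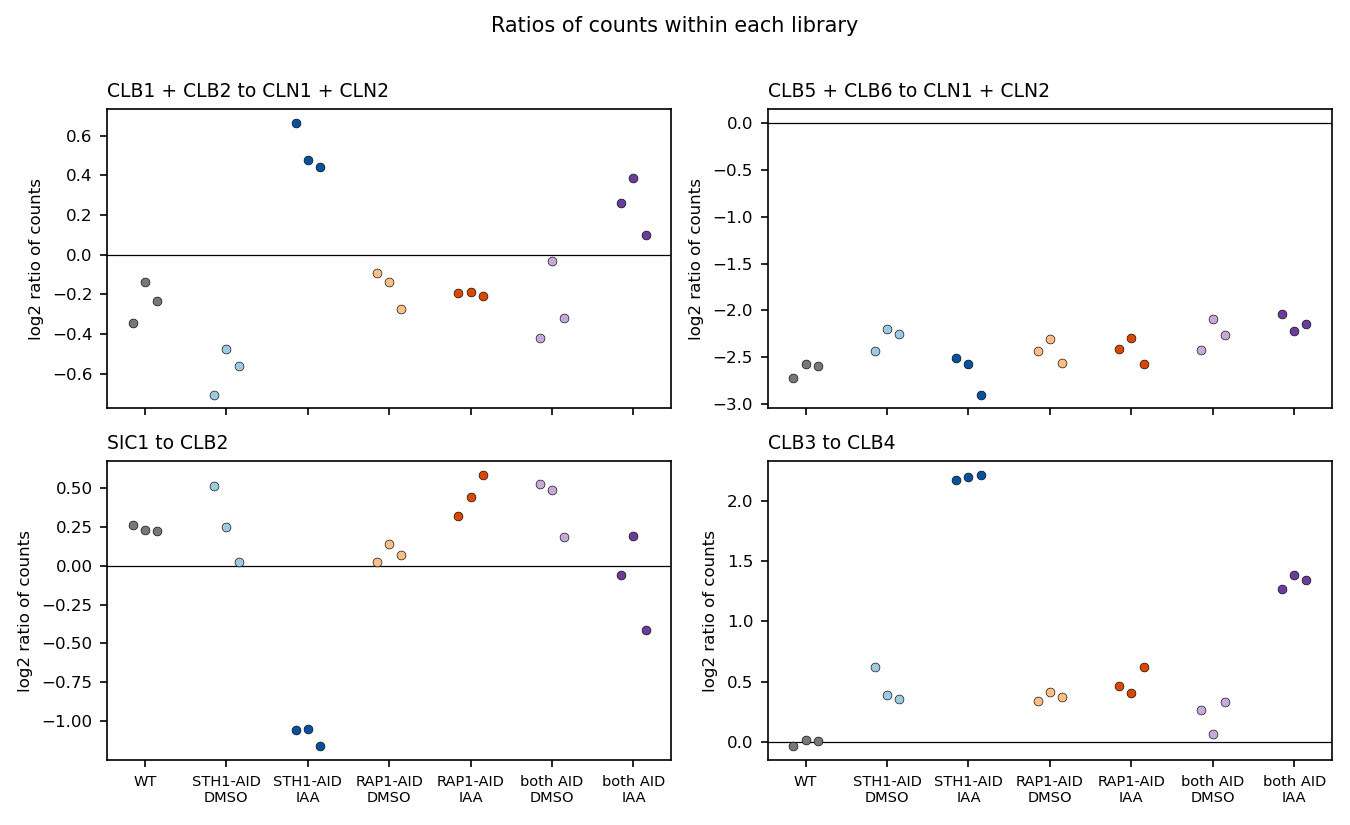
log2 of 4 ratios of counts within each of the 21 libraries, by condition; the ratio of CLB3 to CLB4 was chosen after the data were seen. The CLB3 to CLB4 ratio lies at 4.50 to 4.64 on the linear scale in Sth1-depleted cells, at 2.40 to 2.60 on co-depletion and between 0.975 and 1.54 elsewhere.

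The neighbours of the genes that fell were examined for shared upstream regions. Only protein-coding genes matched to the annotation were searched, and none of them overlapped any of the 10. PNP1, which shares the 275 bases with CLB4, fell on Sth1 depletion by 1.44 on the log2 scale (SE 0.10, adjusted p = 2.09e-10). BOS1, which shares the 260 bases with SIC1, fell by 1.15 on the log2 scale (SE 0.11, adjusted p = 2.72e-08). Both genes of both pairs thus fell. Of all 368 divergent pairs with at most 300 bases between them, both genes fell in 50.8% and both rose in 12.0%, so a fall on both sides was common among such pairs. On co-depletion both genes fell in 39.9% of such pairs. PNP1 then fell (log2 fold change -0.84 ± 0.10), as CLB4 did. BOS1 fell as well (-0.36 ± 0.11), while SIC1 did not pass (0.19 ± 0.10). On Sth1 depletion, convergent neighbours moved alike in some pairs and not in others. CLB1 and CLB6 are convergent neighbours 307 bases apart, and CLB1 rose while CLB6 fell. CLB2 and CLB5 are convergent as well, 746 bases apart, and CLB2 rose while CLB5 did not pass. CLN2 rose and its convergent neighbour YPL257W, 1116 bases away, fell by 1.48 (SE 0.19, adjusted p = 8.34e-07) on the log2 scale. In the remaining pairs both genes moved the same way: ATG38, 401 bases from CLB4, fell by 1.17 (SE 0.21, adjusted p = 3.68e-05), and CDC24, 373 bases from CLN3, rose (0.28 ± 0.09, adjusted p = 0.00767). The libraries were strand-specific.

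On Rap1 depletion, 0 of the 10 genes rose or fell by edgeR's quasi-likelihood test. 2 genes, CLB4 and SIC1, passed an unadjusted p of 0.05, and DESeq2's Wald test with Benjamini-Hochberg adjustment also called 0. Of all genes, 12.8% rose, 13.3% fell and 4.75% changed over 2-fold. The log2 fold changes of the 10 ranged from -0.21 to 0.27, with a median of -0.01 beside 0.01 over all genes. The libraries did not overlap for 4 of the 10, against 42.2% of all genes. SIC1 was at the top of this range, with 250.1, 262 and 266 CPM in the control and 293, 310.1 and 336 CPM in Rap1-depleted cells. Every depleted library was higher than every control library, and the log2 fold change was 0.27 ± 0.10 (adjusted p = 0.0633). The main test did not pair libraries by replicate number. With replicate number as a block, an effect shared by the libraries of all strains, SIC1 passed (adjusted p = 0.0415, with a range over all alternatives of 0.00557 to 0.198). By the same edgeR test SIC1 also passed with only the libraries compared (adjusted p = 0.0387) and with total library size (0.00557). CLB4 was at the bottom, at 57.8, 52.7 and 58.0 CPM in the control and 50.4, 51.5 and 44.1 CPM after depletion, a log2 fold change of -0.21 ± 0.09 (adjusted p = 0.107).

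On co-depletion of Rap1 and Sth1, 6 of the 10 genes rose and 1 fell. CLB1, CLB2, CLB3, CLB5, CLN2 and CLN3 rose and CLB4 fell, while CLN1, CLB6 and SIC1 did not pass the test. Of all genes, 32.2% rose, 37.5% fell and 12.8% changed over 2-fold, the last of which included only CLB1 of the 10. The median log2 fold change was 0.62 over the 10 genes and -0.05 over all genes, and treated and control libraries were without overlap for 8 of the 10, against 69.1% of all genes. DESeq2's Wald test called all 10 genes, with SIC1 (adjusted p = 0.0472), CLB6 (0.0409) and CLN1 (0.0484) added as higher. Over all alternatives their adjusted p ranged from 0.0131 to 0.893, 0.0103 to 0.497 and 0.0283 to 0.998.

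The mitotic cyclin genes CLB1 and CLB2 rose on co-depletion too. CLB1 had 108, 109.8 and 109 CPM in the RAP1-AID/STH1-AID control and 309, 324 and 277 CPM in co-depleted cells, a log2 fold change of 1.47 ± 0.10 (adjusted p = 3.42e-10). CLB2 had 252, 261 and 251 CPM in the control and 408, 382 and 436 CPM after co-depletion, a log2 fold change of 0.68 ± 0.07 (adjusted p = 1.10e-07). The groups were apart for both genes. CLB3 had 73.5, 67.6 and 80.2 CPM and then 113, 104 and 125 CPM, and rose by 0.63 ± 0.09 on the log2 scale (adjusted p = 3.02e-06). CLB4 had 61.1, 64.4 and 63.7 CPM and then 47.1, 40.1 and 49.3 CPM, a log2 fold change of -0.47 ± 0.09 (adjusted p = 0.000197). CLB3 and CLB4 thus parted again, and the ratio of their counts was 2.40 to 2.60, above its control and below that of Sth1-depleted cells.

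Of the G1 and S phase cyclin genes and SIC1, CLB5, CLN2 and CLN3 rose on co-depletion, while CLB6, CLN1 and SIC1 did not pass the test. CLB5 had 49.9, 41.6 and 49.0 CPM in the control and 86.2, 64.1 and 89.99 CPM in co-depleted cells. The co-depleted libraries were the highest of the study for this gene, with a log2 fold change of 0.77 ± 0.11 (adjusted p = 3.73e-06). CLB6 had 40.5, 47.7 and 44.4 CPM in the control and 59.3, 52.2 and 60.4 CPM after co-depletion. All co-depleted libraries were higher, and the log2 fold change of 0.37 ± 0.19 did not pass (adjusted p = 0.0866). CLN2 had 297, 233 and 242 CPM and then 391, 353 and 437 CPM, a log2 fold change of 0.61 ± 0.11 (adjusted p = 8.06e-05). CLN3 had 218, 171 and 179 CPM and then 297.5, 258 and 340.3 CPM, a log2 fold change of 0.66 ± 0.11 (adjusted p = 4.03e-05). Neither gene's groups overlapped. CLN1 had 186, 147 and 206 CPM in the control and 207, 187 and 229 CPM after co-depletion, and its groups overlapped (log2 fold change 0.21 ± 0.12, adjusted p = 0.114). SIC1 had 362, 366 and 285 CPM and then 391, 437 and 328 CPM, which overlapped as well (log2 fold change 0.19 ± 0.10, adjusted p = 0.111).

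**Figure D3:**
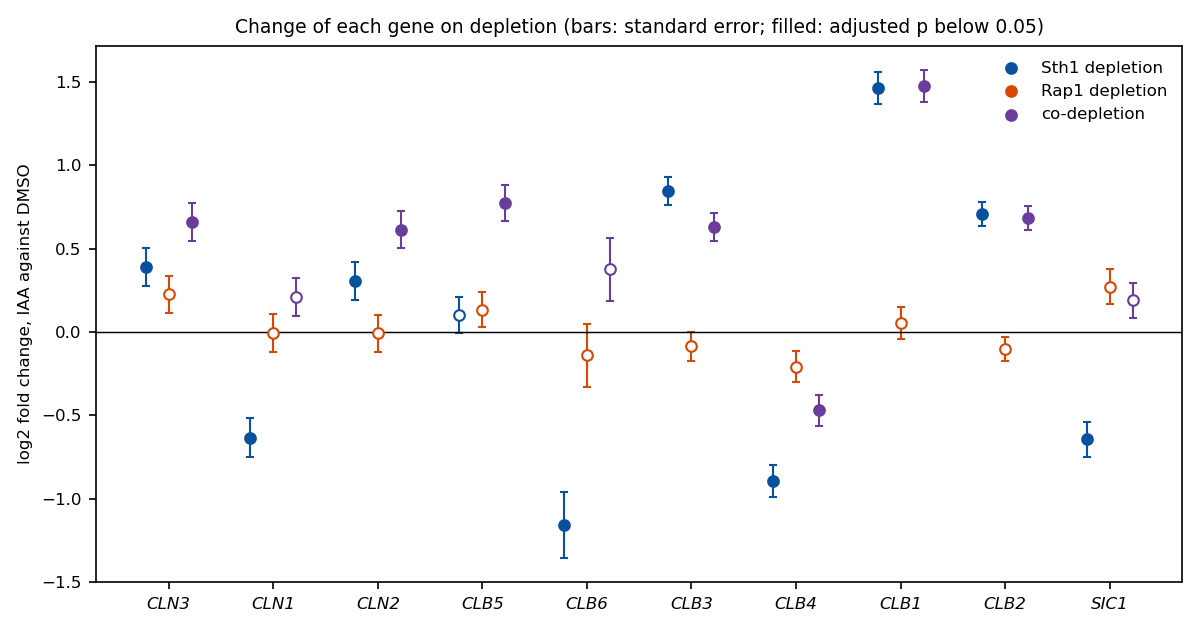
log2 fold change of IAA against DMSO for each gene on Sth1 depletion, Rap1 depletion and co-depletion, with the standard error of the edgeR fit; filled points passed an adjusted p below 0.05. CLB1 stands at 1.46 and 1.47 on Sth1 depletion and co-depletion, while CLN1, CLB6 and SIC1 fell on Sth1 depletion and did not pass on co-depletion.

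The difference between the effects was tested directly. Co-depletion differed from Sth1 depletion for 5 of the 10 genes, each with the higher value on co-depletion. Of all genes 30.0% differed in either direction, 1123 higher and 602 lower of 5742, with a median difference of 0.08. These were CLB6 (difference in log2 fold change 1.53 ± 0.27, adjusted p = 0.000292), CLN1 (0.84 ± 0.16, adjusted p = 0.000673), SIC1 (0.83 ± 0.15, adjusted p = 0.000292), CLB5 (0.67 ± 0.15, adjusted p = 0.00236) and CLB4 (0.42 ± 0.13, adjusted p = 0.0207). They include the 4 genes that fell on Sth1 depletion. The call of CLB4 was lost without DMSO replicate 3 (adjusted p = 0.0531) or IAA replicate 1 (0.0582) of the STH1-AID strain, the latter the highest adjusted p over its alternatives, which reached down to 0.00451. For CLB1 and CLB2 the differences were 0.01 ± 0.13 and -0.03 ± 0.10 and did not pass.

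Sth1 depletion differed from Rap1 depletion for 7 genes, against 68.9% of all genes. CLB1 (difference 1.41 ± 0.14), CLB3 (0.93 ± 0.12) and CLB2 (0.81 ± 0.10) were higher on Sth1 depletion, and CLB6 (-1.02 ± 0.27), SIC1 (-0.91 ± 0.15), CLB4 (-0.69 ± 0.13) and CLN1 (-0.63 ± 0.16) were lower. Co-depletion differed from Rap1 depletion for 6 genes, against 55.0% of all genes in either direction (1476 higher and 1683 lower). The 6 were CLB1 (1.42 ± 0.14), CLB2 (0.78 ± 0.10), CLB3 (0.72 ± 0.12), CLB5 (0.64 ± 0.15), CLN2 (0.62 ± 0.16) and CLN3 (0.43 ± 0.16), each higher on co-depletion. The call of CLN3 was lost without any of 5 libraries: RAP1-AID DMSO replicate 3 (adjusted p = 0.0657), RAP1-AID IAA replicate 1 (0.0765), or RAP1-AID/STH1-AID DMSO replicate 2 (0.0758), DMSO replicate 3 (0.0611) or IAA replicate 3 (0.0716). With total library size the calls of CLN2 (adjusted p = 0.118), CLN3 (0.583) and CLB5 (0.130) were lost. Over all alternatives the adjusted p ranged from 0.000177 to 0.118 for CLN2, 0.00648 to 0.583 for CLN3 and 4.99e-05 to 0.130 for CLB5.

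Co-depletion was also set against the sum of both single effects on the log2 scale. It exceeded the sum for 5 genes, against 26.8% of all genes that differed from it in either direction. The differences were 1.67 ± 0.33 for CLB6 (adjusted p = 0.00102), 0.85 ± 0.20 for CLN1 (adjusted p = 0.00397), 0.63 ± 0.16 for CLB4 (adjusted p = 0.00702), 0.56 ± 0.18 for SIC1 (adjusted p = 0.0273) and 0.54 ± 0.19 for CLB5 (adjusted p = 0.0375). The calls of CLB6, CLN1 and CLB4 held when any library was left out. That of CLB5 was lost without any of 7 libraries: STH1-AID DMSO replicate 2 (adjusted p = 0.0707), RAP1-AID DMSO replicate 2 (0.0520) or replicate 3 (0.0539), RAP1-AID IAA replicate 3 (0.0671), or RAP1-AID/STH1-AID DMSO replicate 2 (0.0672), IAA replicate 1 (0.0801) or IAA replicate 3 (0.0603). That of SIC1 was lost without any of 5: STH1-AID DMSO replicate 1 (0.0667) or replicate 2 (0.0505), RAP1-AID IAA replicate 1 (0.0557), or RAP1-AID/STH1-AID DMSO replicate 3 (0.0543) or IAA replicate 2 (0.0562). With total library size CLB5 was lost as well (adjusted p = 0.122), and over all alternatives the adjusted p ranged from 0.00255 to 0.122 for CLB5 and from 0.00501 to 0.0667 for SIC1.

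Counts over all genes were also taken with total library size in place of TMM. With total library size the median log2 fold change of all genes became -0.31 on Sth1 depletion, 0.13 on Rap1 depletion and -0.26 on co-depletion, and 0.12, 0.17 and 0.13 in the STH1-AID, RAP1-AID and double degron controls. The genes that rose and fell were then 1300 and 401 on Rap1 depletion, against 736 and 763 with TMM, and 1220 and 2735 on co-depletion, against 1848 and 2151. In the controls they were 1531 and 629, 2068 and 633, and 1536 and 558, against 1060 and 1115, 1302 and 1267, and 937 and 977. Higher and lower differences became 968 and 2887 for Sth1 against Rap1 depletion (1802 and 2157 with TMM), 674 and 2590 for co-depletion against Rap1 depletion (1476 and 1683), and 655 and 568 against the sum (1019 and 519). For co-depletion against Sth1 depletion they were 1163 and 490, against 1123 and 602, with a median of 0.13 against 0.08.

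The DMSO controls themselves differed from WT for some of the genes, and CLB6 was the gene that rose in each. CLB6 was at 24.9, 21.2 and 24.7 CPM in WT and at 39.6 to 58.1 CPM in the 9 control libraries, with no overlap. Its log2 fold change was 1.10 ± 0.20 in the STH1-AID control (adjusted p = 0.000217), 0.86 ± 0.19 in the RAP1-AID control (adjusted p = 0.00144) and 0.91 ± 0.20 in the control of the double degron strain (adjusted p = 0.00134). The 3 comparisons share the WT libraries, and WT received no DMSO and carries no osTIR, so strain, osTIR and DMSO cannot be told apart. In the STH1-AID control, 3 of the 10 genes rose against 18.5% of all genes, 1 fell against 19.4%, and 5.56% of all genes changed over 2-fold. The others were CLB3 (0.45 ± 0.09, adjusted p = 0.000405), CLN1 (0.43 ± 0.12, adjusted p = 0.0066) and, lower, CLB2 (-0.29 ± 0.07, adjusted p = 0.00335), whose call was lost with total library size (adjusted p = 0.144, in a range over alternatives from 0.000294). In the RAP1-AID control, 2 rose against 22.7% of all genes and none fell against 22.1%, with 9.80% over 2-fold. The other gene was CLB1, at 194, 178 and 167 CPM, above every WT library (0.72 ± 0.10, adjusted p = 6.65e-06). In the RAP1-AID/STH1-AID control, 1 rose against 16.3% and none fell against 17.0%, with 6.36% over 2-fold. CLN1 and CLB6 thus fell on Sth1 depletion from a control level above WT, while CLB4, at 57.8 to 68.9 CPM in the control and 62.5 to 65.8 CPM in WT, did not start from a raised level.

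Across the 21 libraries, members of the group varied together or apart. Pearson's r of log2 CPM was highest between CLN2 and CLN3 (r = 0.902) and lowest between CLB1 and CLB4 (r = -0.879). For each gene the most similar of 5383 genes averaging 50 counts or more was found by the same measure. CLN1 and CLB6 were both most like POL30 (r = 0.772 and 0.865), the gene of the DNA replication clamp, and CLB5 was most like POL12 (r = 0.886), a subunit gene of DNA polymerase alpha. CLN2 was most like CLN3, and CLN3 like SCW4 (r = 0.924), which encodes a cell wall protein. CLB1 was most like ICS3 (r = 0.975), CLB2 like TIF6 (r = 0.934), of ribosome biogenesis, CLB3 like PMT2 (r = 0.979), a protein mannosyltransferase gene, CLB4 like GPI13 (r = 0.957), of glycolipid anchor synthesis, and SIC1 like DSE3 (r = 0.945), a daughter cell gene. The 21 libraries share strains and treatments, so these values describe the pattern over 7 conditions.

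Genes that act with the cyclins were described by lists. Each count stands beside the share of all genes tested that rose and fell, 35.9% and 40.9% on Sth1 depletion, 32.2% and 37.5% on co-depletion and 12.8% and 13.3% on Rap1 depletion, and no list was tested as a whole. Of 8 genes of the kinase and its direct regulators, 5 rose and 3 fell on Sth1 depletion. CDC28, the kinase subunit that all these cyclins bind, fell by 0.86 on the log2 scale (SE 0.08), and CAK1, the kinase that activates it, fell by 0.83 (SE 0.10). FAR1, an inhibitor of the Cln kinases, fell by 0.73 (SE 0.16), while HSL7 (0.79 ± 0.11) and HSL1 (0.53 ± 0.11), which act against the inhibitory kinase Swe1, and CKS1 (0.60 ± 0.12), a partner of Cdc28, rose. On co-depletion 5 rose and 2 fell, with CDC28 again lower by a log2 fold change of -0.88 ± 0.08. With total library size 4 rose and 3 fell on Sth1 depletion (median 0.07, against 0.32 with TMM), and 3 rose and 2 fell on co-depletion (median 0.17, against 0.38).

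The list of genes that share the transcription pattern of CLB2 rose almost throughout. On Sth1 depletion 14 of 15 rose and 0 fell, with a median log2 fold change of 0.73 beside -0.06 over all genes. HST3, a histone deacetylase gene (1.20 ± 0.10), and MOB1 (1.08 ± 0.09) and DBF2 (1.06 ± 0.10), of a kinase complex of mitotic exit, had the largest rises. Of the 4 regulators of G2/M transcription, NDD1 (0.51 ± 0.10), FKH2 (0.45 ± 0.10) and MCM1 (0.34 ± 0.13) rose, and FKH1 fell by 0.41 (SE 0.10) on the log2 scale. On co-depletion 13 of the 15 rose and DBF2 fell, with a median of 0.40. With total library size 12 rose on Sth1 depletion and 7 on co-depletion. In the STH1-AID control against WT, 7 of the 15 already rose and 0 fell (median 0.08), beside 18.5% and 19.4% of all genes. In the RAP1-AID/STH1-AID control 4 rose and 1 fell, beside 16.3% and 17.0%.

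The targets of SBF and MBF, the factors that drive CLN1, CLN2, CLB5 and CLB6, were mixed on Sth1 depletion and mostly higher on co-depletion. On Sth1 depletion 13 of 27 rose and 7 fell, with a median of 0.17, and with total library size 8 rose and 9 fell, with a median of -0.08. RFA1, of the single-strand DNA binding complex, rose (0.87 ± 0.10), and POL1, the catalytic subunit gene of DNA polymerase alpha, fell by 1.55 (SE 0.11) on the log2 scale. On co-depletion 20 rose and 3 fell, with a median of 0.64 (18 and 4 with total library size). In the STH1-AID control against WT, 13 of these 27 targets already rose and 3 fell (median 0.26). In the RAP1-AID/STH1-AID control 7 rose and 6 fell. Of 11 genes of G1/S transcription control, 4 rose and 4 fell on Sth1 depletion, among them SWI6, the shared subunit gene of SBF and MBF (-0.87 ± 0.08), and 6 rose and 2 fell on co-depletion. Its median on Sth1 depletion was 0.01, and -0.24 with total library size. Of the 9 histone genes, transcribed in S phase, 7 fell and 0 rose on Sth1 depletion (median -0.55), and 5 rose and 0 fell on co-depletion (median 0.21), where with total library size 0 rose and 0 fell.

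Of 21 genes of the SCF and APC/C ubiquitin ligases, which mark Sic1 and the mitotic cyclins for destruction, 14 fell and 4 rose on Sth1 depletion (median -0.60). APC11 fell by 2.47 (SE 0.14) and DOC1 by 1.79 (SE 0.11) on the log2 scale. The largest rises were those of HRT1 (1.10 ± 0.13), GRR1 (0.54 ± 0.11) and CDC20, an activator of the APC/C (0.48 ± 0.07). On co-depletion 12 fell and 3 rose.

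The remaining lists were mixed. Of 11 genes of the mitotic exit network, 6 rose and 2 fell on Sth1 depletion (6 and 5 with total library size) and 6 rose and 3 fell on co-depletion. The lists share genes: DBF2, MOB1, TEM1 and CDC5, which rose on Sth1 depletion, are in this list and in that of CLB2. CDC20, PCL1, PCL2, SWE1, NRM1 and SWI4 also stand in more than 1 list, so the list counts are not independent. Of 9 genes of the early cell cycle box and MCM group, 5 rose and 3 fell on Sth1 depletion (3 and 4 with total library size), with CDC6 higher (0.95 ± 0.15) and MCM4 lower (-1.33 ± 0.08). On co-depletion 3 rose and 2 fell, and 2 and 4 with total library size. Of 11 genes of the Pho85 kinase and its cyclins, 2 rose and 4 fell on Sth1 depletion and 4 rose and 2 fell on co-depletion (4 and 4 with total library size). PCL5 rose in both (1.31 ± 0.09 and 1.80 ± 0.10) and PCL9 fell on Sth1 depletion (-1.33 ± 0.13). On Rap1 depletion at most 3 genes of any of these lists rose and at most 3 fell. Some of these changes were large: DBF20 (1.96 ± 0.10), SWM1 (1.33 ± 0.10), SRL3 (1.01 ± 0.17) and TEM1 (0.89 ± 0.11) had the largest rises. FAR1 had the largest fall, by 0.50 (SE 0.15) on the log2 scale. DBF20 and SWM1 also rose on co-depletion (1.64 ± 0.10 and 1.63 ± 0.105). On Sth1 depletion SWM1 fell (-1.42 ± 0.11) and DBF20 did not pass (-0.05 ± 0.10). On Rap1 depletion with total library size, 7 genes of the ubiquitin ligases, 4 of the mitotic exit network and 3 of the histone genes rose, against 3, 3 and 0 with TMM.

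Mating type genes moved with the same treatments. On Sth1 depletion, 6 of the 6 MATa markers rose (median log2 fold change 1.33) and 3 of the 4 MATα markers (median 1.95), and on co-depletion 5 and 4 did. Several of these rises rest on few counts in the STH1-AID libraries. From control to depleted cells, MF(ALPHA)2 had 0 to 1 and 0 to 6 counts, and MF(ALPHA)1 had 2 to 4 and 5 to 13. MFA1 had 0 to 7 and 9 to 15, and ASG7 had 13 to 16 and 42 to 55. STE2, STE6, BAR1 and SAG1 had far more, with SAG1 at 972 to 1215 and 2558 to 3079. The part of the mating type genes in the changes of the cyclin genes was not tested.

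**Figure D4:**
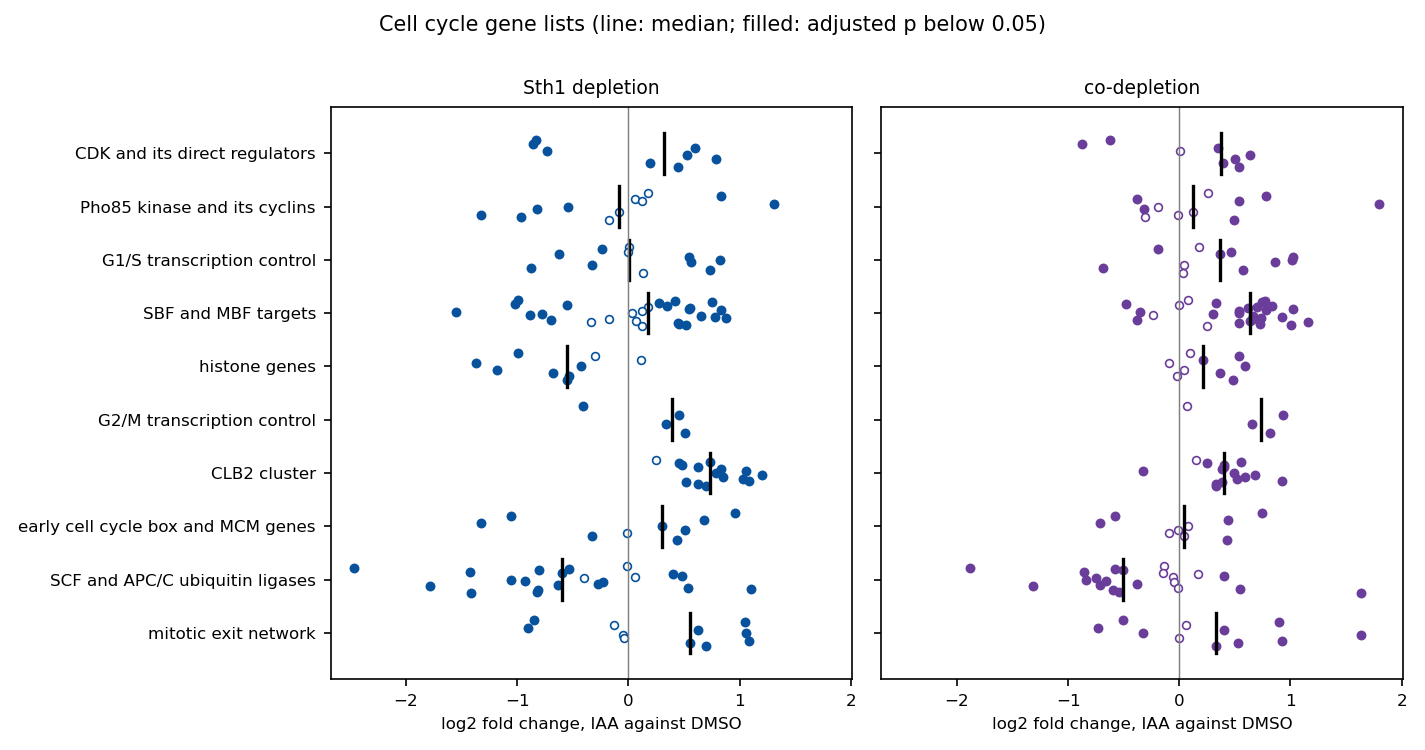
log2 fold change of IAA against DMSO for each gene of 10 cell cycle lists on Sth1 depletion (left) and co-depletion (right), with a line at the list's median; filled points passed an adjusted p below 0.05. The CLB2 cluster lies to the right of 0 on Sth1 depletion (median 0.73), the ubiquitin ligase genes lie mostly to the left in both (medians -0.60 and -0.51), and the histone genes lie mostly left of 0 on Sth1 depletion and mostly right of it on co-depletion, which was not so with total library size (median 0.00085).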

How the data were processed

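Nascent RNA-seq of 21 libraries was used. The authors trimmed the strand-specific reads with cutadapt 1.9.1 and quantified Ensembl genes of build R64 with RSEM 1.3.0 and STAR 2.5.2a. Per gene, the table deposited by the authors gives an expected count, estimated by RSEM and not scaled between libraries, which was rounded here. It also gives the authors' TPM, scaled by gene length and by library, which served only to order levels between genes.

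Counts were fitted with edgeR 4.0.16 in R 4.3.3 (TMM, low-count filter by condition, 6164 features and 5742 protein-coding genes kept, quasi-likelihood test, 14 residual degrees of freedom), with all libraries in the same fit and Benjamini-Hochberg adjustment over the protein-coding genes. Errors of fold changes are standard errors. The 10 genes and all lists were chosen with earlier results of these data known. Named list genes are those with the largest changes past the threshold, up to 3 in each direction. A list of target genes is not reported here. DESeq2 1.42.0 was an alternative. The fit was also run on simulated data in which a small set of genes changed, up and down alike, in Sth1-depleted cells only. That simulation does not test the scaling for changes as broad as those seen on Sth1 depletion. Libraries sharing a replicate number deviated together in the RAP1-AID strain (r = 0.20, 0.474 and 0.236), but the main fit did not use the numbers as pairs. In the other strains a pair fell below 0.1. The replicate block was fitted over all strains at once, and no fit paired libraries within a single strain. The labels call the replicates biological; p-values measure the spread between these libraries.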

Additional observations from a re-analysis of the deposited data

Results flagged for a closer look

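The effect of IAA differed between strains, by the test of the difference itself, for 18 combinations of gene and strains, all from edgeR's quasi-likelihood test adjusted over 5742 genes. Values are differences in log2 fold change. Sth1 depletion exceeded Rap1 depletion for CLB1 (1.41, adjusted p = 3.22e-08), CLB3 (0.93, adjusted p = 1.60e-06) and CLB2 (0.81, adjusted p = 8.70e-07). It was lower for CLB6 (-1.02, adjusted p = 0.00279), SIC1 (-0.91, adjusted p = 2.32e-05), CLB4 (-0.69, adjusted p = 0.000143) and CLN1 (-0.63, adjusted p = 0.00228). Co-depletion exceeded Sth1 depletion for CLB6 (1.53), CLN1 (0.84), SIC1 (0.83), CLB5 (0.67) and CLB4 (0.42). Co-depletion exceeded Rap1 depletion for CLB1 (1.42, adjusted p = 1.73e-07), CLB2 (0.78, adjusted p = 4.38e-06), CLB3 (0.72, adjusted p = 7.95e-05), CLB5 (0.64, adjusted p = 0.00154), CLN2 (0.62, adjusted p = 0.00269) and CLN3 (0.43, adjusted p = 0.0269). In the comparisons with Sth1 depletion the strains also differed at MET17, whose part was not tested.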

How the results depend on the processing

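Of 51 log2 fold changes followed through 882 combinations with another setting, 840 kept direction and side of the threshold, and no called gene changed sign in any of the 10 comparisons. Over all 10 genes, comparisons and settings, 65 of 1900 values changed sign, each of them uncalled. Among the 51 followed, those that did so were, with total library size, on Sth1 depletion for CLB5 (-0.15) and on co-depletion for CLN1 (-0.00043) and SIC1 (-0.016). The count of genes called went from 0 on Rap1 depletion to 2 with total library size, 1 with the replicate block and 1 with only the libraries compared. From 2 in the RAP1-AID control it went to 7 with total library size and 4 with only the libraries compared, and from 1 in that of RAP1-AID/STH1-AID to 2 with DESeq2 size factors, 5 with total library size, 3 with the replicate block and 3 with the DESeq2 Wald test. With an adjusted p of at most 0.01, 3 genes exceeded the sum of effects. Genes over 2-fold were 2 on Sth1 depletion, 1 on co-depletion, 1 in the STH1-AID control and 0 in the other controls, 2 for Sth1 against Rap1 depletion, 1 for co-depletion against either, and 1 against the sum.

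Leaving out each library in turn gave 8 to 9 calls on Sth1 depletion, 0 on Rap1 depletion, 7 to 8 on co-depletion, 4 to 5 in the STH1-AID control, 2 to 3 in that of RAP1-AID and 1 to 2 in that of RAP1-AID/STH1-AID, 7 to 8 for Sth1 against Rap1 depletion, 4 to 6 for co-depletion against Sth1 depletion, 5 to 7 against Rap1 depletion and 3 to 5 against the sum. The 2 calls in the RAP1-AID/STH1-AID control came without its DMSO replicate 2 or 3, and the 3 against the sum without STH1-AID DMSO replicate 2. The replicate block left 9 calls on Sth1 depletion and 7 on co-depletion, in strains where a pair of numbers correlated at 0.0863 and 0.0639. Every STH1-AID library correlated best with its own number.

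Upstream windows of 250, 500 and 1000 bases gave 0, 0 and 2 genes with the SBF core, 0, 1 and 3 with the MBF core, 2, 5 and 7 with the Swi5 core, 2, 4 and 10 with the RSC core, 2, 7 and 9 with a run of 7 A, and 1, 2 and 5 with the forkhead core. By CPM per kb, SIC1 over CLB6 in WT was 15.8. Reads carried no stated molecular identifiers, so depth was not turned into counting intervals. CLB6, the lowest gene in WT cells but not in every condition, had the widest error on Sth1 depletion (SE 0.20, against 0.11 for CLB5).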
